A study of Mus musculus with 6 samples.

Results

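Cell cycle and DNA replication genes were followed in cultured mouse keratinocytes that lack *Sox4*, *Sox11* or both. The genes were 40 that act in S phase or in mitosis, out of 21368 genes that could be named on the array. A probe belonged to a gene when it was not a control and its RefSeq accession carried that gene's symbol, and by this rule 40 of the 40 listed genes were found, by 52 probes. They were split into 17 replication genes, measured by 20 probes, and 23 mitotic genes, measured by 32 probes. Of several probes for 1 gene, the brightest over all arrays was used.

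A cell that commits to division first switches on the G1/S regulators, here the E-type cyclins *Ccne1* and *Ccne2* and the transcription factor *E2f1*. Replication origins are licensed by *Cdc6* and *Cdt1*, which load the MCM helicase (*Mcm2* to *Mcm7*), and *Gins2* encodes a subunit of the complex that activates it. *Pcna* encodes the sliding clamp of the fork, *Rrm2* and *Tyms* supply deoxynucleotides, and *Uhrf1* and *Hells* restore DNA methylation and chromatin on the new strands. Mitosis is driven by cyclins and kinases (*Ccna2*, *Ccnb1*, *Ccnb2*, *Cdk1*, *Plk1*, *Aurka*, *Aurkb*) and timed by the spindle checkpoint and the anaphase-promoting machinery (*Bub1*, *Bub1b*, *Ttk*, *Cdc20*, *Ube2c*). Kinesins and spindle proteins (*Kif11*, *Kif20a*, *Kif23*, *Nusap1*, *Tpx2*) and centromere and chromosome proteins (*Birc5*, *Cenpa*, *Cenpe*, *Cenpf*, *Mki67*, *Top2a*) move the chromosomes. In the epidermis these genes are used by the dividing basal keratinocytes, which leave the cycle when they differentiate. Expression of the replication genes is known to be driven by E2F factors, and that of many mitotic genes by the MuvB complex with B-MYB and FOXM1.

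Knockout RNA and wild-type RNA were hybridised together on 2-colour arrays, with 2 biological replicates of each of 3 genotypes and 6 arrays in all. In the Sox4 cKO cells both copies of a floxed *Sox4* had been removed by *Krt14*-driven Cre recombinase, which acts in basal keratinocytes. The Sox11 cKO cells had lost floxed *Sox11* in the same way, and the double conditional knockout (dcKO) cells had lost both genes. All knockout and wild-type cells were primary keratinocytes from newborn pups, taken through passages on J2 fibroblast feeders and then off them. Their strain is labelled 129SvEx:C57BL/6, which the study's methods give as the mixed background of the floxed mice, and the *Krt14*-Cre mice crossed in were FVB/N. The floxed founders also carried a *Sox12* null allele, and the labels do not state whether it was kept in the mice used here. Whether one wild-type culture served several arrays is not given either, so the SD and p-values measure the spread between arrays, which may in part be technical. Knockout RNA was in Cy5 on replicate 1 and in Cy3 on replicate 2 of every genotype. Dye and replicate number therefore cannot be told apart, and the model's dye term is also a block on the replicate number. The SD of 2 arrays keeps what that term removes, so it is not the error behind the limma p.

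Of all probes, 35.1% to 42.8% were well above background in the knockout channels and 37.3% to 45.0% in the wild-type channels, and 36 to 38 of the 40 genes were so in each channel. *Aurkb* and *Ccne2* were well above background on none of the arrays in either channel, so no level or fold of either is printed or plotted gene by gene. They stay in the counts and medians over 17, 23 and 40 genes, and leaving both out moved a class median by at most 0.10 in a genotype and 0.07 in a contrast between genotypes. *Cenpf* was well above background on 1 of 2 arrays in Sox4 cKO and in dcKO, and *Ttk* on 1 of 2 in the wild-type channel of Sox4 cKO. Counts limited to measured genes leave these out where they fail. The 36 genes well above background in every channel had a median brightness at the 91.1st percentile of all named genes, and the dimmest of them was *Tyms* at the 53.6th percentile. The targeted genes followed the labels. *Sox4* had log2 ratios of -2.49 and -2.54 on the Sox4 cKO arrays and of -2.23 and -2.81 on the dcKO arrays, and *Sox11* had -3.31 and -2.65 on the Sox11 cKO arrays and -3.07 and -3.79 on the dcKO arrays. Basal keratinocyte markers were well above background in all channels for 7 of 7 genes. Of 10 fibroblast markers at most 1, *Col1a2*, was well above background in all channels of a genotype.

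The promoters of the 2 classes differed in the letters they hold. RefSeq promoters of GRCm38.p6, which run from 250 bases before the listed start to 50 bases after it, were given for 33 of the 40 genes, as 16 promoters of replication genes and 19 of mitotic genes. They were searched on both strands for the E2F letters TTTCCCGC, TTTCGCGC, TTTGCCGC and TTTGGCGC, for the cell cycle homology region (CHR) letters TTTGAA and for CCAAT. E2F letters were in 8 of 16 replication promoters (50%), in 1 of 19 mitotic promoters (5.26%) and in 2.26% of all 32851 promoters. CHR letters were in 1 of 16 replication promoters (6.25%), in 14 of 19 mitotic promoters (73.7%) and in 17.9% of all promoters. CCAAT was in 10 of 16 (62.5%), 17 of 19 (89.5%) and 37.4% respectively. The CHR variant TTTAAA was less divided, in 4 of 16 (25%), 7 of 19 (36.8%) and 13.2%. A match is a description of letters and not a bound site, and matches of different motifs or on opposite strands can overlap.

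The stretches below end at the base before the listed start and carry in capitals the letters of one motif. *Uhrf1*, *Mcm6* and *Hells* are shown with E2F letters because they were among the replication genes lower in dcKO than in both single knockouts within both replicate numbers. *Uhrf1* has another listed promoter, which holds CCAAT but no E2F letters. *Mcm6* holds 3 matches, of which the first pair overlap on opposite strands.
*Uhrf1*, chr17:56304118-56304312, plus strand: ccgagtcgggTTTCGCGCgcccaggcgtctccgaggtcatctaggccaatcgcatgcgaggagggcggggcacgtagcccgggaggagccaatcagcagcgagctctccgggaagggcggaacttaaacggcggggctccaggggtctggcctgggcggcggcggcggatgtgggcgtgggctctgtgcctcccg
*Mcm6*, chr1:128359706-128359825, minus strand: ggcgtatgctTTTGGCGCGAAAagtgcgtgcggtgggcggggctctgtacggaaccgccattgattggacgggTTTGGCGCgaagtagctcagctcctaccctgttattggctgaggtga
*Hells*, chr19:38930870-38930989, plus strand: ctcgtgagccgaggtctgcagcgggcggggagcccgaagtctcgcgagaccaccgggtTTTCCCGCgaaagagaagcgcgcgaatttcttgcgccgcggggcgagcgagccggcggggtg
*Ccnb2*, *Top2a* and *Cdk1* are shown with CHR letters: the first pair were among the highest mitotic genes in Sox11 cKO, and the promoter of *Cdk1* was the only mitotic one that also held E2F letters, which lie upstream of the stretch shown. In *Top2a* the second match is on the opposite strand and reads as its reverse complement.
*Ccnb2*, chr9:70421555-70421731, minus strand: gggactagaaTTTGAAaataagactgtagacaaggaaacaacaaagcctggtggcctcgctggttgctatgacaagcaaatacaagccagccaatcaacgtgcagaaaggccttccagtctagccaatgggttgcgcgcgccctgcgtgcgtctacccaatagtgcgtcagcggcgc
*Top2a*, chr11:99024190-99024378, minus strand: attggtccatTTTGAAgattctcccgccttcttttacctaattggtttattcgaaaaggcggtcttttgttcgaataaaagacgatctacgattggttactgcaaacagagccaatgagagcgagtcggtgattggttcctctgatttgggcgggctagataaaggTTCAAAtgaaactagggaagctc
*Cdk1*, chr10:69352913-69353032, minus strand: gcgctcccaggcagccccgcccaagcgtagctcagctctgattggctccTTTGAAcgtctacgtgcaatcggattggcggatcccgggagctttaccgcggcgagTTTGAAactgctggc

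The 2 arrays of a genotype differed more for these genes than for the rest of the array, and this bears on every value below. On the Sox4 cKO arrays the median log2 ratio of the replication genes was -0.07 on replicate 1 and 0.75 on replicate 2, and that of the mitotic genes was -0.12 and 0.61. On the Sox11 cKO arrays these medians were 0.07 and 0.89 for replication and -0.01 and 0.97 for mitotic genes. On the dcKO arrays they were -0.41 and -0.10 for replication and -0.08 and 0.06 for mitotic genes. The second replicate was therefore the higher one for both classes in every genotype. It was above the first for 37 of the 40 genes in Sox4 cKO, 36 in Sox11 cKO and 29 in dcKO, against 47.9%, 48.8% and 52.4% of all genes well above background. The model's dye term, Cy5 over Cy3, was below 0 for 37 of 40 genes (92.5%) with a median of -0.32. Over all 10156 genes well above background on all arrays it was below 0 for 49.1%, with a median of 0.00412. This shared shift was alike in both classes, with medians of -0.37 for replication genes (15 of 17 below 0) and -0.31 for mitotic genes (22 of 23). A dye effect on these probes and a difference between the cultures numbered 1 and 2 cannot be told apart. Bulk RNA also does not separate fewer cycling cells from less of each RNA per cell.

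**Figure D1:**
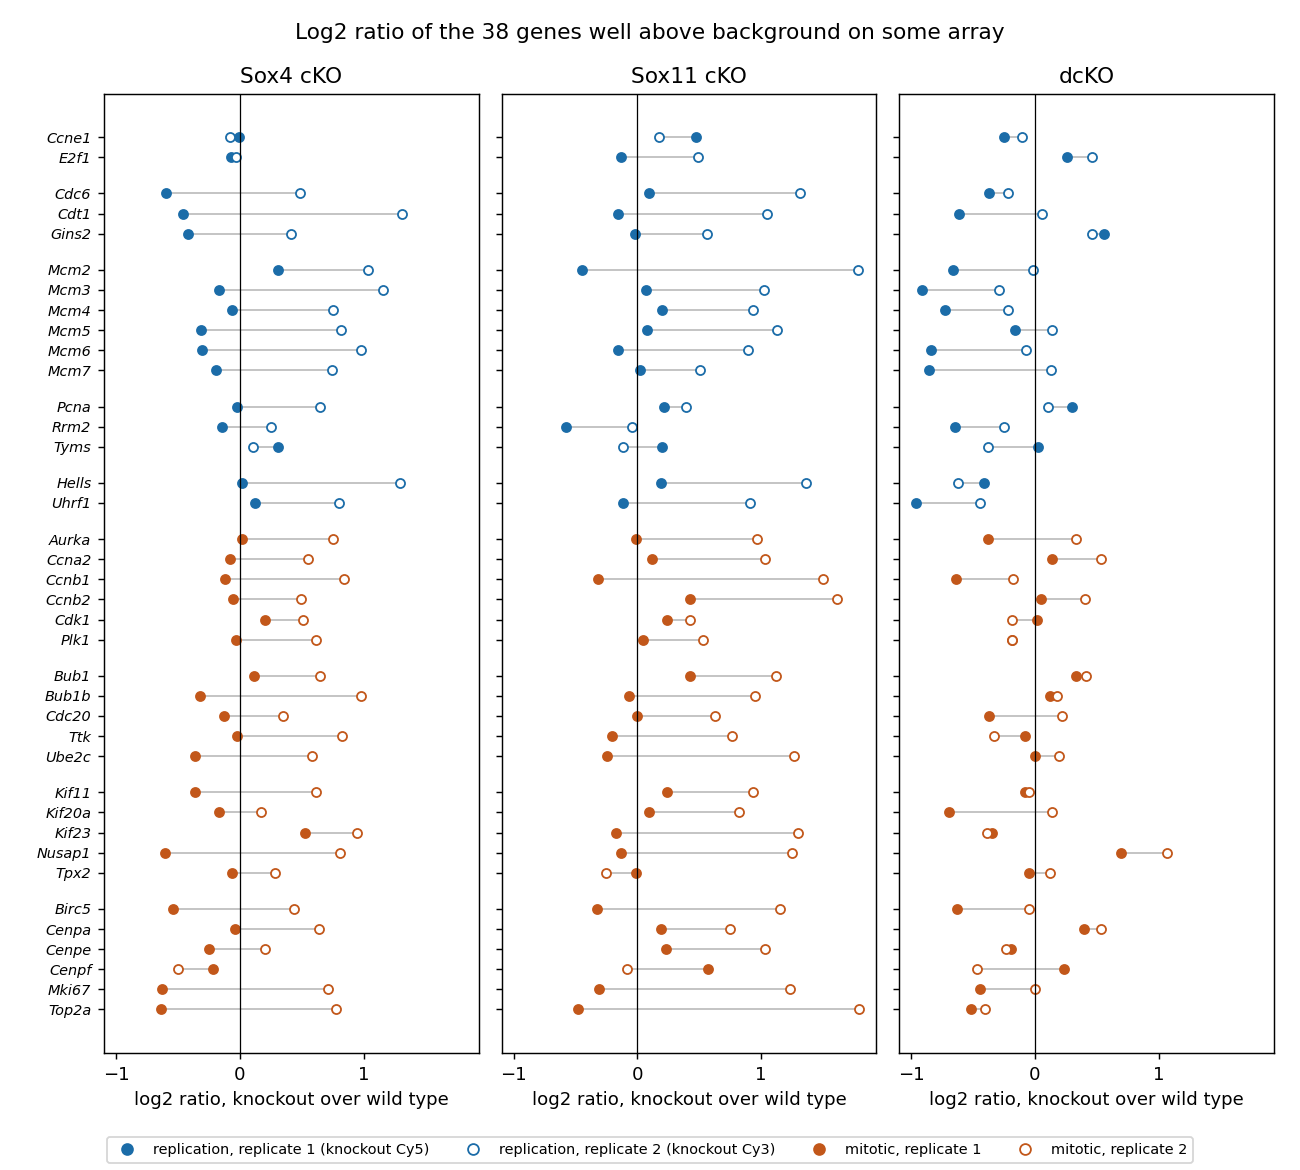
Log2 ratio of knockout over wild type (x axis) for the 38 genes well above background on at least 1 array (rows, grouped by role), with replicate 1 filled, replicate 2 open and a line joining them; where 1 point is seen, as for *Plk1* in dcKO, the 2 coincide. Replicate 2 lies to the right of replicate 1 for 35 genes in Sox4 cKO, 34 in Sox11 cKO and 28 in dcKO.

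Channel levels were then compared with each gene's mean over the 6 channels of the same dye, on the log2 scale. On the first replicates the median deviation of the 40 genes was 0.13 in Sox4 cKO, 0.40 in Sox11 cKO and 0.02 in dcKO knockout RNA, and lay between -0.000692 and 0.0201 in the 3 wild-type channels. On the second replicates the knockout channels lay close together, at -0.11, 0.01 and 0.05. The wild-type channels of those arrays were far apart, at -0.31 beside Sox4 cKO, -0.56 beside Sox11 cKO and 0.39 beside dcKO. On replicate 2 the order of the ratios between genotypes thus followed the wild-type channel, and on replicate 1 it followed the knockout channel.

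**Figure D2:**
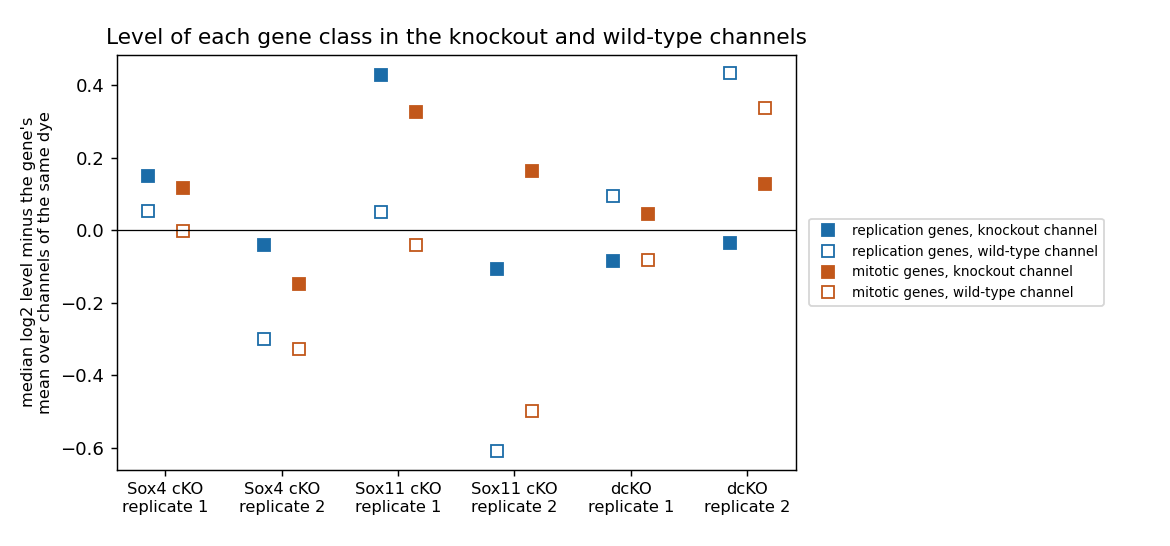
Median log2 level of the replication genes (blue) and mitotic genes (orange) in each channel, minus each gene's mean over the channels of the same dye (y axis), for the 6 arrays (x axis); filled squares are knockout and open squares wild-type RNA. On replicate 2 the wild-type squares lie from -0.61 to 0.43 and the knockout squares from -0.15 to 0.16.

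No gene of either class was called in any genotype, where called means a limma adjusted p below 0.05 over all probes and an absolute log2 fold change above 1.5. No gene had an adjusted p below 0.05 at any fold either. Over all 55681 probes the called share was 0.14% in Sox4 cKO, 0.0862% in Sox11 cKO and 0.756% in dcKO. At an unadjusted p below 0.05 the counts were 8 genes in Sox4 cKO (7 higher and 1 lower, 7.4% of all probes passing), 19 in Sox11 cKO (all higher, 6.84%) and 8 in dcKO (3 higher and 5 lower, 13%). These counts moved with single arrays. The Sox4 cKO count fell to 3 without Sox4 cKO replicate 1 and to 0 without Sox4 cKO replicate 2, and the Sox11 cKO count to 2 without Sox11 cKO replicate 2. The dcKO count was 5 without dcKO replicate 2 and 13 without dcKO replicate 1 or without either Sox11 cKO array. The largest log2 fold change of a measured gene in any genotype was 1.02, for *Ccnb2* in Sox11 cKO, and was short of the fold required.

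In Sox4 cKO cells the fitted log2 fold change was above 0 for 32 of the 40 genes and below 0 for 8, with medians of 0.28 for replication genes (SD of the array medians 0.58, n = 2) and 0.20 for mitotic genes (SD 0.52, n = 2). Both SDs exceed the medians, but they hold the shift between replicates 1 and 2 that the model removes, so they are not the error of the fit. Among 36 genes well above background on both arrays, 8 were higher on both arrays (22.2%) and 2 lower on both (5.56%), against 27% and 26.4% of all genes. The shift between replicates stays in such counts in each genotype. It moved most of the 40 genes one way but not the rest of the array, so these shares are not like for like. *Kif23*, a kinesin of the spindle midzone needed for cytokinesis, was highest at 0.52 and 0.94 (log2 fold change 0.73 ± 0.30, SD, n = 2; limma adjusted p = 0.553). It was positive on both arrays. *Mcm2*, a helicase subunit, had 0.31 and 1.04, and *Hells*, a chromatin remodeller, had 0.01 and 1.29.

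Other genes near the upper end lay near or below 0 on the first array. *Mcm3* had -0.17 and 1.16. *Aurka*, a centrosomal kinase, had 0.02 and 0.75, and the checkpoint kinase *Bub1* had 0.11 and 0.65. At the lower end the fits lay near 0. *Ccne1* had -0.01 and -0.08, *E2f1* -0.07 and -0.03 and *Cdc6* -0.59 and 0.49. Among mitotic genes the lowest were *Birc5*, encoding survivin, at -0.54 and 0.44, *Cenpe*, a centromere kinesin, at -0.25 and 0.20, and *Kif20a* at -0.17 and 0.17. By role the medians ranged from -0.05 for the G1/S regulators *Ccne1* and *E2f1* to 0.34 for the MCM helicase and 0.56 for *Uhrf1* and *Hells*.

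In Sox11 cKO cells the fit was above 0 for 37 genes and below 0 for 3. The median was 0.40 for replication genes (SD of the array medians 0.58, n = 2) and 0.47 for mitotic genes (SD 0.69, n = 2). These SDs were again larger than the medians and hold the same shift. Of 38 genes well above background on both arrays, 17 were higher on both and 2 lower on both, beside 22.3% and 21.1% of all genes. *Ccnb2*, a B-type cyclin, stood highest at 0.43 and 1.61 (log2 fold change 1.02 ± 0.84, SD, n = 2, or 2.03-fold; limma adjusted p = 0.145). *Bub1* had 0.43 and 1.12 (0.77 ± 0.49, SD, n = 2; limma adjusted p = 0.229). With the authors' log2 ratios the adjusted p of *Bub1* was 0.0473, and over the other settings it ran from 0.118 to 1.00. The authors' ratios had the dye effect removed before the fit, which can make p too small. *Ccnb2* and *Bub1* were positive on both arrays, and the second value was the larger one.

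*Hells* had 0.19 and 1.36 in Sox11 cKO and the licensing factor *Cdc6* had 0.09 and 1.32. *Top2a*, the topoisomerase that untangles chromosomes, had -0.48 and 1.80, and *Mcm2* had -0.44 and 1.78. Both thus rested on the second array alone. Without Sox11 cKO replicate 1, *Mcm2* was at 1.44, *Ccnb2* at 1.38 and *Kif23* at 1.21, and without replicate 2 *Mcm2* was at -0.10. The lowest replication genes were *Rrm2*, the small subunit of ribonucleotide reductase, at -0.58 and -0.05, *Tyms*, thymidylate synthase, at 0.20 and -0.12, and *E2f1* at -0.13 and 0.49. *Rrm2* was the only one of these 3 below 0 on both arrays. Of the mitotic genes *Tpx2*, which anchors Aurora A on the spindle, had -0.01 and -0.26, *Cenpf* 0.57 and -0.09, and the checkpoint kinase *Ttk* -0.21 and 0.76. By role the medians were 0.56 for the MCM helicase and for kinesins and spindle proteins, 0.59 for *Uhrf1* and *Hells*, 0.52 for the 6 measured cyclins and mitotic kinases and 0.04 for fork and nucleotide supply.

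In dcKO cells more genes lay below 0 than above. The fit was below 0 for 14 of 17 replication genes and for 14 of 23 mitotic genes, and the medians were -0.30 for replication (SD of the array medians 0.22, n = 2) and -0.08 for mitotic genes (SD 0.10, n = 2). Over all genes well above background the median was -0.038. Without *Aurkb* and *Ccne2* the medians were -0.32 and -0.08. The direction turned without dcKO replicate 2, where the dye term is carried by the other genotypes: the medians were then 0.08 for replication, with 9 genes above 0 and 8 below, and 0.14 for mitotic genes, with 19 above and 4 below. Without dcKO replicate 1 they were -0.48 and -0.31. Lists of other genes of the 2 processes had the opposite order, with dcKO medians of -0.04 over 36 other replication genes and -0.12 over 34 other mitotic genes. Among those well above background on both arrays, 9 of 16 replication genes were lower on both and 3 higher on both, and 8 of 21 mitotic genes were lower and 7 higher, beside 37.4% and 32% of all genes. The dcKO mitotic count was thus near the background share and the replication count somewhat above it.

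*Uhrf1*, which recruits the maintenance DNA methyltransferase to new DNA, was lowest in dcKO at -0.96 and -0.45 (log2 fold change -0.70 ± 0.36, SD, n = 2, SE 0.16, or 1.63-fold lower; limma adjusted p = 0.079). Its adjusted p was 0.0189 with the authors' log2 ratios, 0.00562 with median centring and 0.586 at most over the settings tried. Under median centring all genes well above background had a dcKO median of -0.515, so the low p of *Uhrf1* there is not particular to it. *Mcm3* had -0.91 and -0.29 (-0.60 ± 0.44, SD, n = 2; limma adjusted p = 0.149) and *Hells* had -0.41 and -0.62. *Rrm2* was at -0.64 and -0.25, *Mcm4* at -0.73 and -0.22, and *Mcm6* at -0.84 and -0.07. These 6 genes were negative on both dcKO arrays. With the authors' log2 ratios *Mcm3* (limma adjusted p = 0.0401) and *Rrm2* (0.0406) also passed, and with the dye effect subtracted first *Mcm4* (0.0465) and *Rrm2* (0.0395) did. The dye effect was removed before the fit in both settings, which can make p too small. As a complex, the 6 MCM subunits had a median of -0.78 on replicate 1 and -0.04 on replicate 2, with *Mcm5* and *Mcm7* above 0 on the latter. Not every replication gene shared the sign, since *Gins2* had 0.56 and 0.46, *E2f1* 0.26 and 0.46, and *Pcna* 0.30 and 0.11.

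The highest mitotic gene in dcKO was *Nusap1*, which bundles spindle microtubules, at 0.69 and 1.07 (0.88 ± 0.26, SD, n = 2, SE 0.21, or 1.84-fold; limma adjusted p = 0.0959). Its adjusted p was 0.0345 in a limma fit of the dcKO arrays alone. It did not pass with the authors' log2 ratios, with the processed signals or without the replicate block. The smallest limma adjusted p of any gene of either class in dcKO was 0.236 with the processed signals. Without the replicate block it was 0.440. *Cenpa*, the centromeric histone, had 0.40 and 0.53, and *Bub1* had 0.33 and 0.41. At the other end *Top2a* had -0.52 and -0.40, *Ccnb1* -0.64 and -0.18, and *Kif23* -0.34 and -0.39. Each of these 6 genes kept its sign on both arrays. *Kif23* was positive on both Sox4 cKO arrays and negative on both dcKO arrays.

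**Figure D3:**
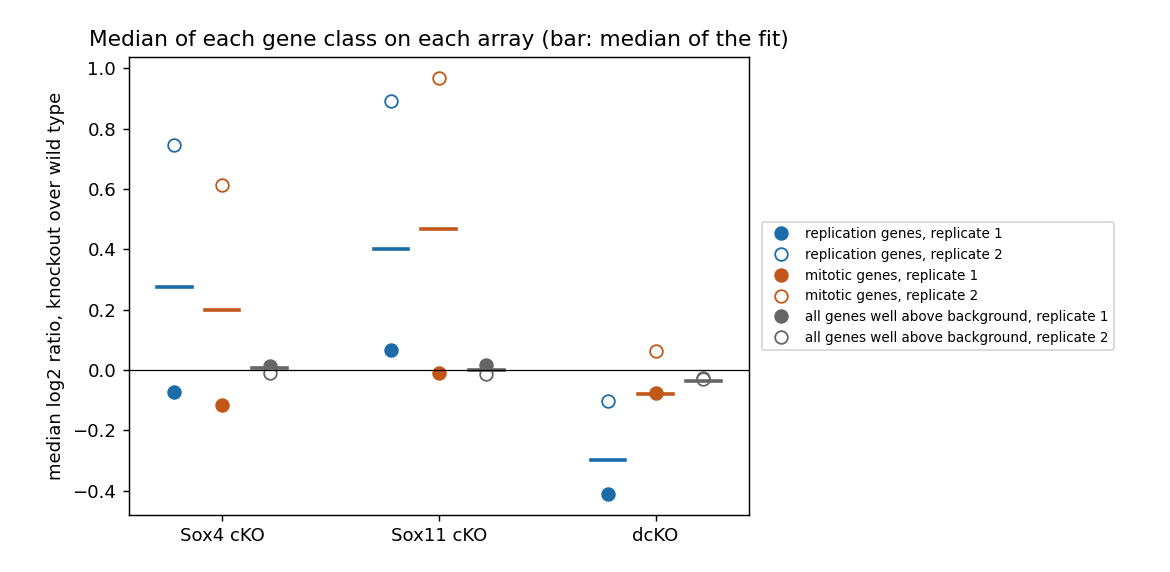
Median log2 ratio of knockout over wild type (y axis) for replication genes, mitotic genes and all genes well above background in each genotype (x axis), with replicate 1 filled, replicate 2 open and the median of the fit as a bar. The medians of all genes stay near 0 on every array, and those of replication genes run from -0.41 to 0.89.

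Replication and mitotic genes were compared by the difference of their medians on each array. In dcKO the replication median was below the mitotic one on both arrays, by log2 differences of -0.33 and -0.17 (fit -0.22; SD 0.12, n = 2). Without *Ccna2*, *Top2a* and *Mki67*, which also act in S phase or are present through it, the fitted difference was -0.23. In Sox4 cKO the differences were 0.04 and 0.13 (fit 0.08; SD 0.06, n = 2) and in Sox11 cKO 0.08 and -0.08 (fit -0.07; SD 0.11, n = 2). No p is given for it, since 2 arrays are the only units. Leaving out dcKO replicate 2 moved the difference to -0.06. The roles behind it in dcKO were the MCM helicase at -0.41, *Uhrf1* and *Hells* at -0.61 and origin licensing at -0.28. The remaining replication roles were higher, with fork and nucleotide supply at -0.18 and the G1/S regulators *Ccne1* and *E2f1* at 0.09. Mitotic roles were at -0.05 for the 6 measured cyclins and mitotic kinases, 0.10 for the checkpoint group and -0.06 for kinesins and spindle proteins. Centromere and chromosome genes, at -0.22, were the mitotic role nearest to the replication median. They lay below fork and nucleotide supply and the G1/S regulators.

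The genotypes were then compared with one another in the same model, which removes what arrays of one replicate number share. No gene of either class was called or had an adjusted p below 0.05 in the 3 contrasts, while the called share over all probes was 0.562% between dcKO and Sox4 cKO, 0.449% between dcKO and Sox11 cKO and 0.0108% between the single knockouts. At an unadjusted p below 0.05 there were 12 genes for dcKO minus Sox4 cKO (1 higher and 11 lower, 12.1% of all probes passing), 21 for dcKO minus Sox11 cKO (all lower, 10.3%) and 5 for Sox11 cKO minus Sox4 cKO (all higher, 6.35%). Here too single arrays moved the counts. The first was 5 or 6 without either Sox4 cKO array and 6 without dcKO replicate 2, and the second was 7 without Sox11 cKO replicate 2 and 6 without dcKO replicate 2. The third was 1 without either Sox4 cKO array, 9 without Sox11 cKO replicate 1 and 3 without Sox11 cKO replicate 2. The contrasts share the dcKO arrays or a single-knockout pair, so they are not independent.

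Against Sox4 cKO the dcKO ratios of replication genes differed by medians of -0.28 within replicate 1 and -0.67 within replicate 2 (fit -0.50), and those of mitotic genes by 0.06 and -0.43 (fit -0.19). Of 36 genes well above background, 19 were lower within both replicate numbers (52.8%) and 3 higher (8.33%), beside 38.1% and 30.7% of all genes. Replication genes made up 11 of the 19. Against Sox11 cKO the medians were -0.46 and -0.99 for replication (fit -0.69) and -0.17 and -0.72 for mitotic genes (fit -0.47). Of 37 genes, 27 were lower within both replicate numbers (73.0%) and 0 higher, beside 34.2% and 27.6% of all genes. The median of all genes well above background was near 0 in both contrasts, at -0.055 and -0.047.

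*Uhrf1* had the smallest adjusted p against Sox4 cKO. Its dcKO minus Sox4 cKO difference was -1.08 within replicate 1 and -1.25 within replicate 2 (fit -1.16, SE 0.22; limma adjusted p = 0.077), and against Sox11 cKO it was -0.85 and -1.36 (fit -1.10; limma adjusted p = 0.103). *Mcm4* differed from Sox11 cKO by -0.93 and -1.15 (fit -1.04; limma adjusted p = 0.102) and *Mcm3* by -0.98 and -1.32 (fit -1.15; limma adjusted p = 0.111). The MCM subunits shared one direction here. Within both replicate numbers 6 of 6 were lower in dcKO than in Sox11 cKO, with medians of -0.78 and -1.07, and 5 of 6 were lower than in Sox4 cKO, with medians of -0.66 and -1.01. *Hells*, at -1.17 and -1.29 in the 2 fits, was less even between replicates, with -0.43 and -1.91 against Sox4 cKO.

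Some of these differences passed the test under other settings. With the authors' log2 ratios *Mcm3*, *Mcm4*, *Mcm6* and *Uhrf1* had adjusted p from 0.0158 to 0.0448 against Sox4 cKO and from 0.0222 to 0.0442 against Sox11 cKO, and with the dye effect subtracted first *Mcm4* and *Uhrf1* passed in both contrasts. None reached the fold required for a call. In both settings the dye effect was removed before the fit, which can make p too small. With the dye effect subtracted first the differences of *Mcm4* and *Uhrf1* equalled those of the main fit, so the p alone changed. Leaving out Sox11 cKO replicate 1 leaves 1 array of that genotype. The dcKO minus Sox11 cKO differences were then -1.88 for *Top2a*, -1.56 for *Ccnb1*, -1.57 for *Kif23* and -1.78 for *Mcm2*. The wild-type channels given above moved with the same contrasts, since on replicate 2 the wild-type level of the 40 genes was 0.39 beside dcKO and -0.31 and -0.56 beside the single knockouts; their part in the difference was not tested.

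**Figure D4:**
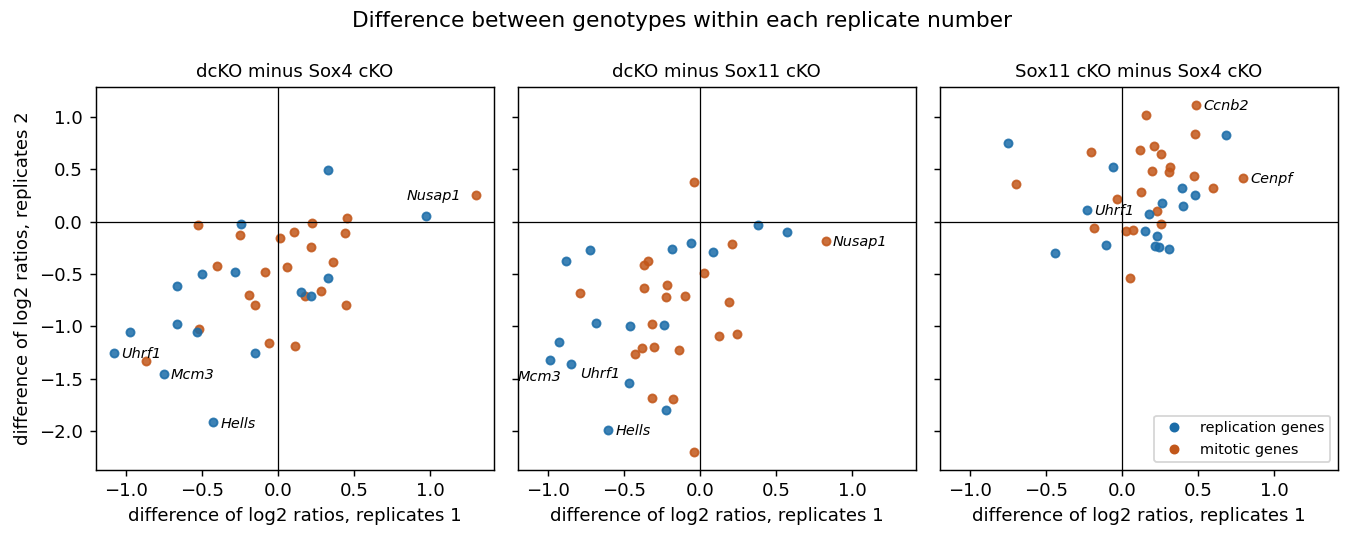
Difference of log2 ratios between 2 genotypes within replicate 1 (x axis) and within replicate 2 (y axis), with 1 point for each of the 38 genes well above background on at least 1 array, blue for replication and orange for mitotic. The lower left area, lower within both, holds 20 genes in the first panel and 28 in the second; the upper right area of the third panel holds 20.

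Between the single knockouts both classes had medians above 0. The 2 classes were close within replicate 1, and the mitotic median was the larger within replicate 2 and in the fit. For Sox11 cKO minus Sox4 cKO the mitotic median was 0.20 within replicate 1 and 0.42 within replicate 2 (fit 0.34), and the replication median was 0.23 and 0.11 (fit 0.05). Of 20 mitotic genes well above background 13 were higher within both replicate numbers and 0 lower, and of 16 replication genes 6 were higher and 2 lower, beside 28.9% and 29.1% of all genes. *Ccnb2* differed by 0.49 and 1.11 (fit 0.80; limma adjusted p = 0.633), *Cdc6* by 0.68 and 0.83 (fit 0.76) and *Cenpe* by 0.48 and 0.84 (fit 0.66). None was near the threshold.

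Regulators upstream of these genes were taken from lists of CDK inhibitors (7 genes) and of G1 cyclins, kinases and activators (9 genes). In the dcKO cells 2 of 7 inhibitors and 2 of 9 G1 genes had an adjusted p below 0.05, and in the single knockouts none did. Of all probes 0.176% had such a p in Sox4 cKO, 0.124% in Sox11 cKO and 2.06% in dcKO, so passes were rarer in the single knockouts over the whole array. *Cdkn1c*, which encodes an inhibitor of the CIP/KIP family, fell to -1.68 and -1.69 (log2 fold change -1.69, SE 0.26; limma adjusted p = 0.0246), and was well above background in the knockout channel on 1 of 2 arrays. *Cdkn2b*, which encodes an inhibitor of the cyclin D kinases, rose to 2.06 and 2.06 (SE 0.39; limma adjusted p = 0.048). Both of these were called. Cyclin D1, *Ccnd1*, fell to -1.24 and -1.28 (log2 fold change -1.26, SE 0.18; limma adjusted p = 0.0192), and its kinase partner *Cdk4* to -1.16 and -0.89 (log2 fold change -1.03, SE 0.16; limma adjusted p = 0.0251). All 4 had the same sign on both dcKO arrays, and *Cdk4* is named because its value was seen to pass. None of the 4 passed with a normexp offset of 50, with the processed signals or without dcKO replicate 2, where the adjusted p ran from 0.0628 to 0.377, and without the replicate block *Cdkn1c* and *Cdkn2b* had 0.0625 and 0.253. *Cdkn2b* also lay above the threshold, at 0.0525 to 0.0622, under several other settings.

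These regulators were not alike in the single knockouts. *Ccnd1* had 0.29 and 1.12 in Sox4 cKO and -0.29 and 0.06 in Sox11 cKO, and its dcKO minus Sox4 cKO difference was -1.54 and -2.40 (fit -1.97; limma adjusted p = 0.0271). *Cdkn1c* had 0.26 and 1.79 in Sox4 cKO, and its dcKO minus Sox4 cKO difference of -2.72 also passed (limma adjusted p = 0.0301). *Cdkn2b* was uneven, with 1.73 and -0.74 in Sox4 cKO and 0.18 and -2.15 in Sox11 cKO. The other inhibitors did not pass in dcKO. *Cdkn1a* had -0.46 and 0.21, and 12 p53 targets had a median of -0.08 with none passing.

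**Figure D5:**
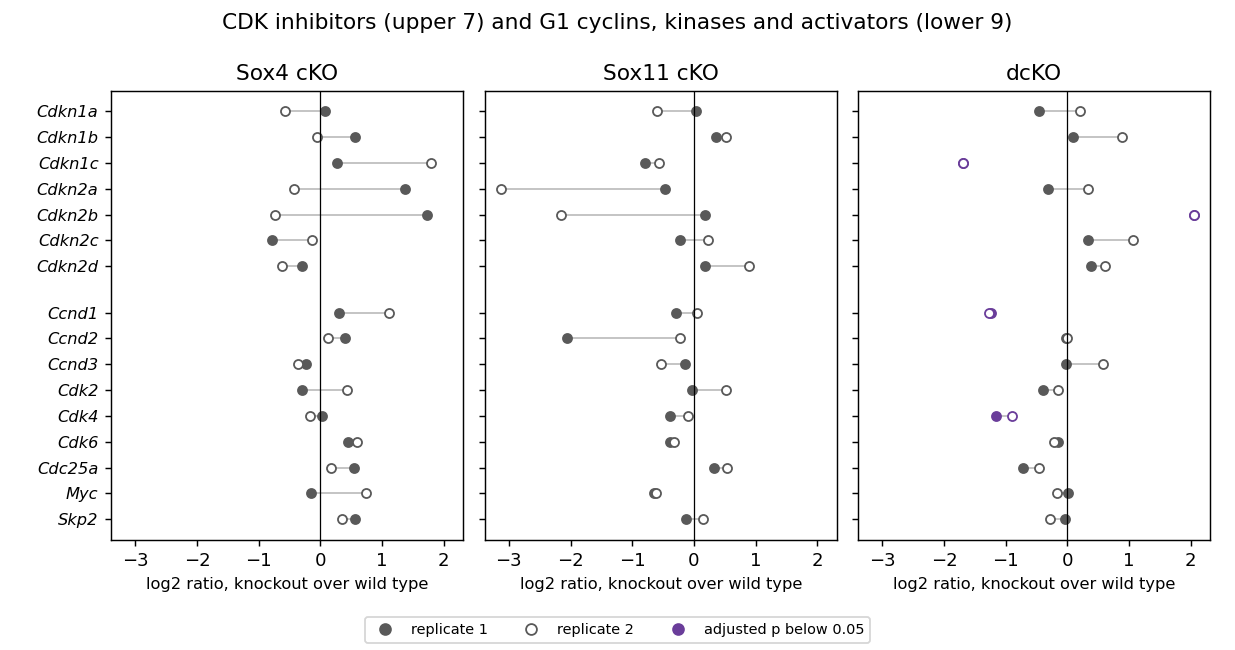
Log2 ratio of knockout over wild type (x axis) for 7 CDK inhibitors (upper rows) and 9 G1 cyclins, kinases and activators (lower rows), with replicate 1 filled, replicate 2 open and purple where the limma adjusted p is below 0.05; where 1 point is seen the 2 coincide. In dcKO *Cdkn2b* lies at 2.06 on both arrays and *Cdkn1c* at -1.68 and -1.69.

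Among 16 genes of the E2F, pocket protein, MuvB and FOXM1 regulators none had an adjusted p below 0.05 in dcKO. At an unadjusted p below 0.05, which 13% of all probes passed in either direction, 6 were lower. Of 10550 genes well above background 1539 were higher and 1890 lower at that p. The activator *E2f3* had -0.68 and -0.96 (limma adjusted p = 0.054) and the MuvB subunit *Lin9* -1.16 and -0.56 (0.0623). *Foxm1*, the mitotic gene activator, had -1.12 and -0.46, the atypical E2Fs *E2f7* and *E2f8* had fits of -0.87 and -0.63, and *Mybl2*, encoding B-MYB, had -0.41. All 6 were negative on both dcKO arrays. The 36 other replication genes had median log2 fold changes of 0.25 in Sox4 cKO and 0.29 in Sox11 cKO, and the 34 other mitotic genes had 0.30 and 0.38, with 0 genes at an adjusted p below 0.05 in any genotype. Over 7 markers of differentiated keratinocytes, of which 5, 5 and 4 were well above background in Sox4 cKO, Sox11 cKO and dcKO, the fits had medians of -0.41, -0.37 and 0.78, and those in dcKO ran from -1.25 to 1.59. The array medians of these markers were -0.62 and -0.09 in Sox4 cKO, 0.12 and -1.16 in Sox11 cKO and 0.12 and 0.51 in dcKO, so the negative Sox11 cKO value came from replicate 2. The 7 basal markers had medians of -0.11, -0.25 and -0.24, but the list was split, with 3, 1 and 3 of the 7 fits above 0. *Krt15* had the lowest fit of the list in Sox4 cKO, at -1.58, and the highest in dcKO, at 0.85. Of these markers 1 was called lower in Sox4 cKO, and 1 was higher in dcKO at an adjusted p below 0.05. The part of either marker list in the values of the cell cycle genes was not tested. Melanocyte and immune markers had medians of 0.03 and -0.17 in dcKO, where 2 of 6 and 3 of 6 of them were well above background.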

How the data were processed

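Log2 ratios of 40 cell cycle genes were taken from 6 arrays with 2 colours. The deposited scanner files hold intensity values per spot and channel on a linear scale, which the authors extracted using Agilent Feature Extraction 11.0.1.1 and which are, for the median signals, not background corrected. Processed intensity values in the same files were background subtracted and dye normalised, per the file headers. A deposited table holds log2 ratios that the authors corrected for background, normalised by loess and adjusted for the dye. The table correlated at 0.89 to 0.952 with the scanner ratios turned as knockout over wild type, and was used as an alternative.

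In R 4.3.3 with limma 3.58.1, median signals were corrected by normexp (offset 16), the 3671 control spots of 62976 were dropped, outlier spots (194 to 288 per array) were set to missing, 0 were saturated, and loess and averaging by probe left 55681 probes. Channel levels were taken after a further Aquantile step between arrays. One model over all 6 arrays had a term per genotype and a dye term, with 2 residual and 5.37 prior degrees of freedom. P-values were adjusted by Benjamini-Hochberg over all probes. The dye term equals a replicate block. Deviations of same-numbered arrays correlated at 0.316, 0.244 and 0.125, and the numbers were taken to pair the arrays. A dye effect shared by same-numbered arrays also gives positive correlations, so these values cannot show that the cultures were paired. The lowest correlation between arrays of one dye orientation was -0.045. All arrays came from 1 slide and 1 scan, untestable as batches.

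RefSeq accessions named 28331 probes (50.9%) through a GRCm38.p6 table. The design used another build, so gene coordinates are not given. Values on both arrays are given for genes past the threshold and for the 3 highest and 3 lowest of each class and genotype among genes well above background; other genes are named for their role or a contrast. The genes, the lists and these rules were chosen with earlier results of these data known. Alternatives covered background offset, processed signals, centring, the authors' ratios, the dye term, dim probes, probe choice and leaving out each array. The number of arrays limits the precision. The fit was tested on simulated data.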

Additional observations from a re-analysis of the deposited data

Results flagged for a closer look

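The wild-type level of *Rrm2* was 12.8 on the log2 intensity scale on Sox11 cKO replicate 2, apart from the other 5 wild-type channels at 13.6 to 14.0. For *Gins2* the wild-type level was 9.07 on Sox4 cKO replicate 1, above the other 5 at 8.33 to 8.59. Chance sets about 1 in 20 such groups of 6 apart in this way. All 40 genes were looked at, so some are expected to stand apart by chance alone. *Ccne2*, which was not well above background, was also set apart. The 6 wild-type channels mix dyes, with Cy3 on replicate 1 and Cy5 on replicate 2. The dye term had a median of -0.32 over the 40 genes. The *Rrm2* value came from a Cy5 channel and the *Gins2* value from a Cy3 channel.

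The median of replication minus that of mitotic genes was 0.0757 in Sox4 cKO, positive on both arrays, and -0.218 in dcKO, negative on both. The median log2 fold change of the replication genes was 0.40 in Sox11 cKO, positive on both arrays, and -0.297 in dcKO, negative on both. The differences between these genotypes were not tested as medians.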

How the results depend on the processing

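The number of genes called stayed at 0 in the 3 genotypes under every setting run. Median centring in place of loess called 5 genes for dcKO minus Sox4 cKO (*Kif23*, *Mcm2*, *Mcm3*, *Uhrf1* and *Hells*) and 5 for dcKO minus Sox11 cKO (*Ccnb1*, *Mcm3*, *Mcm4*, *Uhrf1* and *Hells*), and moved the dcKO medians to -0.83 for replication and -0.53 for mitotic genes. Calls over the whole array also rose under that centring, to 1118 for dcKO minus Sox4 cKO and 827 for dcKO minus Sox11 cKO. Under that centring 15 genes were lower in dcKO at an adjusted p below 0.05 and 4 of 40 fits lay above 0. All genes well above background had a dcKO median of -0.515 there. The processed signals shifted the median of all genes by 0.14 in dcKO, 0.13 for dcKO minus Sox4 cKO and 0.10 for dcKO minus Sox11 cKO. The Sox4 cKO difference between replication and mitotic medians was 0.159 with median centring and 0.163 with an offset of 50. Without the replicate block the counts stayed at 0, with 1, 4 and 1 genes at an unadjusted p below 0.05 in Sox4 cKO, Sox11 cKO and dcKO.

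Leaving out a single array left 1 array in its genotype, so effect sizes alone are given here. The dcKO medians ran from -0.48 to 0.0758 for replication and from -0.31 to 0.14 for mitotic genes, the highest without dcKO replicate 2, since the dye term is then carried by the other genotypes. Replication minus mitotic ran from -0.0065 to 0.10 in Sox4 cKO, from -0.24 to 0.095 in Sox11 cKO and from -0.22 to -0.0646 in dcKO.

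Some genes turned sign, both genes with fits near 0 and genes at the ends of their class. In Sox4 cKO median centring gave *Ccne1* 0.0337, *E2f1* 0.0238, *Cenpe* 0.0536 and *Birc5* 0.0328, the mean of all probes gave *Ccne1* 0.11, and the processed signals gave *Cdc6* 0.0696 and *Kif20a* -0.0185. In Sox11 cKO the mean of all probes gave *Tpx2* 0.0308. In dcKO median centring gave *E2f1* -0.18, *Pcna* -0.34, *Cenpa* -0.0913 and *Bub1* -0.17. Without single arrays the ranges that crossed 0 were, in Sox4 cKO, *E2f1* -0.24 to 0.13, *Cdc6* -0.25 to 0.15, *Kif20a* -0.22 to 0.22 and *Cenpe* -0.0599 to 0.00859. In Sox11 cKO they were *Mcm2* -0.10 to 1.44, *E2f1* -0.0672 to 0.43, *Top2a* -0.0944 to 1.41, *Ttk* -0.0552 to 0.61 and *Tpx2* -0.38 to 0.12. In dcKO they were *Pcna* -0.10 to 0.52, *Hells* -1.23 to 0.20, *Kif23* -0.86 to 0.13, *Ccnb1* -0.88 to 0.0597 and *Top2a* -1.33 to 0.40. Apart from the median centring and the construction just named, the cause was not tested. Mean spot signals were not tried because the files used hold median signals. Medians limited to genes well above background, those without *Aurkb* and *Ccne2*, and the settings for *Ccnd1*, *Cdk4*, *Cdkn1c* and *Cdkn2b*, were chosen after seeing the data.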
